A study of Mus musculus with 6 samples.

Results

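The replication-dependent histone genes are the clustered genes for the linker histone H1 and the core histones H2A, H2B, H3 and H4. They were followed in stimulated mouse CD4 T cells kept short of arginine. Members were chosen by name: a probe set of the array entered if every gene symbol in its annotation was a clustered histone symbol (H1f1 to H1f5, H2ac, H2bc, H3c or H4c and a number). This gave 56 probe sets, naming 57 genes, of 25335 probe sets with a gene symbol, which name 23981 genes. Each probe set was its own unit, since histone genes of one class are close copies: 26 of the 56 carried 1 symbol and 30 carried several.

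The T cells came from OT-II transgenic mice, aged 12 to 16 weeks, which carry a T cell receptor for an ovalbumin peptide. CD4 T cells were purified from spleen and lymph nodes and put into culture with the peptide and antigen-presenting cells, where they stayed 72 hours. The low arginine group (3 arrays) was kept in RPMI-1640 with dialyzed serum and 1% of the normal arginine (12 uM), and the control group (3 arrays) in complete RPMI-1640 with dialyzed serum. CD4 cells were purified again from the co-cultures before total RNA was taken and labelled with a whole-transcript kit. Both groups therefore share the transgenic receptor, the peptide and the presenting cells. The study names 6 mice, and nothing in the labels says how mice and arrays correspond, so p-values measure the spread between these arrays. The T cell marker Cd3e had log2 levels of 10.94, 10.78 and 10.90 in low arginine, against 10.79, 10.72 and 10.80 in control, and 0 of 7 T cell markers passed the test. The low arginine mean was the lower one in 5 of the 7, with a median change of -0.19 (log2, low arginine minus control). At an unadjusted p below 0.05 (limma), 1 was lower, against 2580 of all 25335 probe sets.

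Most of a cell's histone protein is made from these genes in S phase, when new DNA has to be packed into nucleosomes. H2A, H2B, H3 and H4 form the core of the nucleosome, and H1 binds the linker DNA between cores. The mRNAs end in a stem-loop instead of a poly(A) tail, are bound there by SLBP, and are degraded when DNA synthesis stops. The mouse genes lie mainly in a large cluster on chromosome 13 and a smaller one on chromosome 3, with neighbouring H2A and H2B genes often transcribed away from each other from a shared stretch of DNA.

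Histone probe sets of all 5 classes fell in low arginine, and none rose. With limma and Benjamini-Hochberg adjustment over all 25335 probe sets (threshold 0.05), 24 of the 56 histone probe sets fell, 0 rose and 32 had no call. At an unadjusted p below 0.05 the counts were 36 lower and 0 higher, against 2580 lower and 2603 higher over all 25335 probe sets. Over all probe sets tested, 7.61% were called, 4.4% lower and 3.21% higher. The change (low arginine minus control, log2) was negative in 55 of 56 histone probe sets, against 48.6% of all probe sets, and its median was -0.64 in histones, against 0.01 over all. In 39 histone probe sets every low arginine array lay below every control array, which held for 12.2% of all probe sets, and in 17 the groups overlapped. Changes ran from -2.67 in an H2B probe set to 0.08 in H2ac1, and 15 probe sets were past 2-fold, 13 of them called, against 1.83% of all probe sets called lower at that size. In bulk RNA of this kind, fewer cells in S phase and less histone RNA per cell cannot be told apart.

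**Figure D1:**
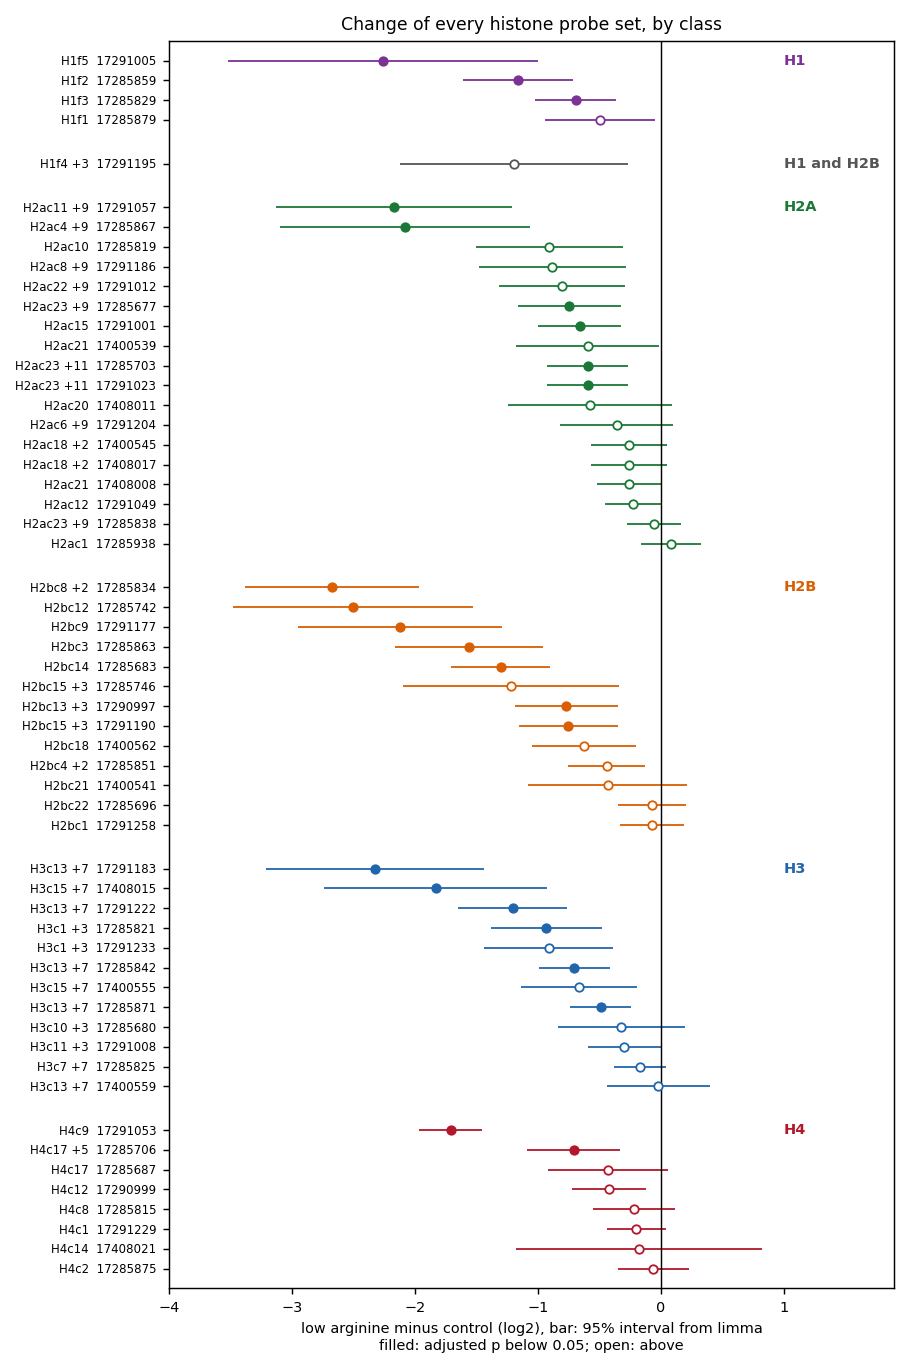
Change of each of the 56 histone probe sets in low arginine relative to control (x axis, log2) by class (y axis, first symbol, number of further symbols and probe set number). Points are limma estimates and bars 95% intervals, filled where the adjusted p was below 0.05. All points but H2ac1 lie left of 0, and the changes within a class run over a wide range.

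The calls rested on few arrays. The count of 24 was 23 without low arginine replicate 1 and 24 without control replicate 1, and was 19 without control replicate 3. In these fits 2.85%, 7.12% and 3.21% of all probe sets were called lower, against 4.4% with all arrays. It was 4 without low arginine replicate 2, 3 without low arginine replicate 3 and 6 without control replicate 2. There 1.27%, 1.4% and 1.38% of all probe sets were called lower, so calls were lost over the whole array. The median histone change was -0.56, -0.58 and -0.64 in these fits. Testing all 41345 probe sets, with and without a symbol, left 10, none of them H2A, and 1.78% of all were called lower. The 3 probe sets that kept their call whichever array was left out were the H2B probe set 17285834, H2bc14 and H4c9.

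The 3 low arginine arrays were not alike. Low arginine replicate 1 was the highest of its group in 42 of 56 histone probe sets, against 33.2% of all probe sets. Relative to each probe set's mean over the 6 arrays, the median histone deviation (log2) was -0.05 in low arginine replicate 1, -0.49 in replicate 2 and -0.44 in replicate 3, against 0.34, 0.33 and 0.22 in control replicates 1, 2 and 3. The groups did not overlap in this median for any class of more than 1 probe set, and low arginine replicate 1 lay nearest to control in each of them. Low arginine replicate 1 reached or passed the lowest control array in 16 histone probe sets, replicate 2 in 6 and replicate 3 in 7. Over all 25335 probe sets these counts were 18673, 18845 and 18208.

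**Figure D2:**
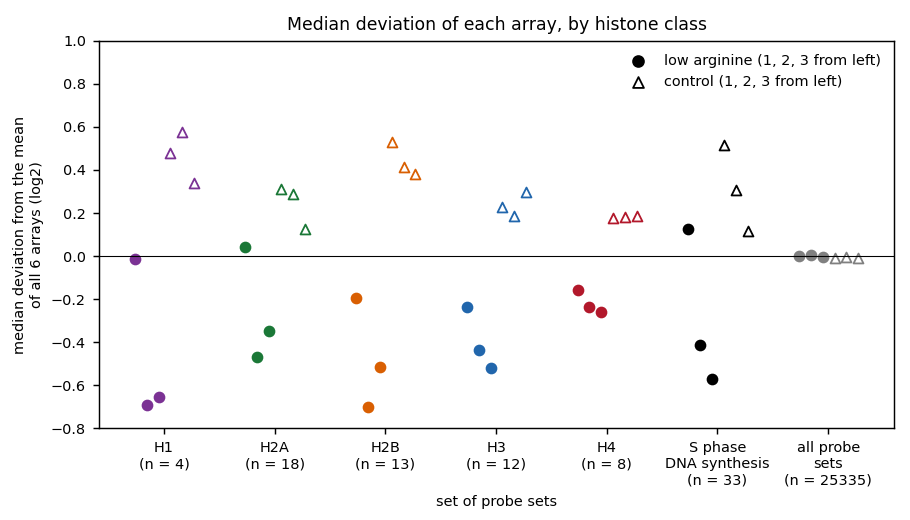
Median deviation of each array from the probe sets' means over all 6 arrays (y axis, log2) for each histone class, for 33 S phase genes and for all probe sets (x axis). Filled circles are low arginine replicates 1, 2 and 3 and open triangles control replicates 1, 2 and 3, from left to right. In the 5 histone classes plotted, the 3 circles lie below the 3 triangles, and the first circle is the highest.

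The linker histones lie on chromosome 13, and 4 of the 5 genes had a probe set of their own. H1f5, H1f2 and H1f3 fell and H1f1 had no call, with a class median of -0.93. H1f5 (17291005) had log2 levels of 5.55, 3.67 and 3.56 in low arginine, against 7.23, 6.31 and 6.02 in control, a change of -2.26 ± 0.54 (SE; adjusted p = 0.0469), or 4.79-fold lower. Its low arginine replicate 1 lay well above the other two of its group, and the groups did not overlap. H1f2 (17285859), 1 of the main somatic linker histones, had 7.13, 6.45 and 6.40 in low arginine, against 7.74, 7.96 and 7.76 in control, a change of -1.16 ± 0.19 (SE; adjusted p = 0.0142). H1f3 (17285829) had 3.45, 3.07 and 3.07 in low arginine, against 3.99, 3.97 and 3.69 in control, a change of -0.69 ± 0.14 (SE; adjusted p = 0.0277). H1f1 (17285879) had 2.47, 1.81 and 2.18 in low arginine, against 2.75, 2.83 and 2.36 in control, and here the groups overlapped (change -0.50, 95% interval -0.94 to -0.05, adjusted p = 0.193). H1f4 was represented by 1 probe set that also names the H2B genes H2bc4, H2bc6 and H2bc8 (17291195). It had 3.73, 4.01 and 3.72 in low arginine, against 4.59, 4.37 and 6.07 in control, a change of -1.19 with no call (adjusted p = 0.133). Its control replicate 3 stood far above the other two.

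Each of the 3 H1 calls was lost when low arginine replicate 2 (adjusted p = 0.0724 to 0.174), low arginine replicate 3 (0.0636 to 0.171) or control replicate 2 (0.0694 to 0.13) was left out. That of H1f5 was also lost when control replicate 1 (0.0505) or control replicate 3 (0.0672) was left out.

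The promoters of 3 linker histones are shown because all carry the same core elements while their changes differ: H1f5 with the largest fall of the class, H1f3 with the smallest called one, and H1f1 with no call. Each sequence is the 200 bases before the annotated start, 5′ to 3′ on the gene's strand, from RefSeq on GRCm38.p6. H1f5 is chr13:21780626-21780825 on the minus strand, H1f3 chr13:23554832-23555031 on the plus strand and H1f1 chr13:23763468-23763667 on the plus strand. Capitals mark TATAAA and CCAAT on either strand (TTTATA and ATTGG on the opposite one), which are the letters of the TATA box and the CCAAT box.
H1f5: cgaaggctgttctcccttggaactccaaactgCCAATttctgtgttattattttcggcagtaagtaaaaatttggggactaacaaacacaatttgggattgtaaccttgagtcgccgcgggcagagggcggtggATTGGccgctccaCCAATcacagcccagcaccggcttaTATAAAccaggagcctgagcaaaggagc
H1f3: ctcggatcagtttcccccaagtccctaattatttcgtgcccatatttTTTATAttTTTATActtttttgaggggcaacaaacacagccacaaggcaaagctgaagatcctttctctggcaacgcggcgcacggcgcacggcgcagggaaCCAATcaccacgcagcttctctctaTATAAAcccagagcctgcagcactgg
H1f1: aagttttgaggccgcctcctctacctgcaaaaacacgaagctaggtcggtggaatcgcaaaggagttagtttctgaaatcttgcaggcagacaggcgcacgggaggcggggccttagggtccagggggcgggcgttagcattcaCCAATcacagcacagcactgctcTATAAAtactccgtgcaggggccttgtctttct
In each of the 3, a CCAAT lies a short way before a TATAAA close to the start.

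H2A was the class with the most probe sets, 18, of which 6 fell, with a median of -0.59. The probe set 17291057, which names H2ac11 and 9 further H2A genes, had 6.53, 4.99 and 4.79 in low arginine, against 7.72, 7.72 and 7.38 in control, a change of -2.17 ± 0.41 (SE; adjusted p = 0.0222). Probe set 17285867, which leads with H2ac4, had 8.18, 6.66 and 6.29 in low arginine, against 9.39, 9.13 and 8.85 in control, a change of -2.08 ± 0.44 (SE; adjusted p = 0.0305). In both, low arginine replicate 1 lay between the other low arginine arrays and the control arrays. H2ac10 (17285819) had 10.40, 9.53 and 9.42 in low arginine, against 10.71, 10.91 and 10.44 in control. Its groups did not overlap, but the change of -0.91 (95% interval -1.50 to -0.31) missed the threshold (adjusted p = 0.0818). Without low arginine replicate 1 it was called lower (-1.21, adjusted p = 0.0127).

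The same 10 H2A symbols were carried by 7 probe sets, of which 3 fell, and their changes spanned -2.17 to -0.05. The -0.05 came from a dim probe set (17285838, means 1.86 in low arginine and 1.92 in control), where a fall may not be visible. Among those with a mean above 2.48, 17291204 changed by -0.36 and 17291012 by -0.80, neither called. Probe sets with identical names therefore gave changes of very different size, and no single change can be assigned to a gene named on several. H2ac15, the 1 H2A gene that fell on a probe set of its own, changed by -0.66 (adjusted p = 0.0364). Its means were 1.82 in low arginine and 2.48 in control, so the size of that fall is uncertain. Of the 6 H2A calls, 4 were on probe sets with a mean above 2.48. A pair of probe sets naming 12 H2A genes (17285703 and 17291023) held identical values on all arrays and fell by 0.59 (adjusted p = 0.0471). A second identical pair, naming H2ac18, H2ac19 and H2ac20 on chromosome 3, had 11.90, 11.50 and 11.44 in low arginine, against 11.85, 11.93 and 11.84 in control (change -0.26, 95% interval -0.57 to 0.05, adjusted p = 0.343). With each pair counted once, 23 of 54 histone probe sets fell. H2ac1, the testis H2A, had 3.18, 3.00 and 3.02 in low arginine, against 2.85, 3.02 and 3.07 in control, and was the 1 histone probe set with a positive change (0.08, adjusted p = 0.763).

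Leaving out low arginine replicate 2 (adjusted p = 0.1 to 0.178) or replicate 3 (0.0839 to 0.169) removed all 6 H2A calls, and leaving out control replicate 2 removed 5 (0.0899 to 0.153). Leaving out control replicate 3 removed 4 (0.0578 to 0.115), low arginine replicate 1 removed 2 (0.0645 to 0.0755) and control replicate 1 removed 1 (0.0561).

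H2B had 13 probe sets, of which 7 fell, and held the largest fall of all histones, with a class median of -0.77. Probe set 17285834, naming H2bc4, H2bc6 and H2bc8, had 4.90, 4.08 and 3.57 in low arginine, against 7.10, 6.79 and 6.67 in control, a change of -2.67 ± 0.30 (SE; adjusted p = 0.0044), or 6.37-fold lower. H2bc12 (17285742) had 6.84, 5.28 and 5.04 in low arginine, against 8.28, 8.33 and 8.05 in control, a change of -2.50 ± 0.42 (SE; adjusted p = 0.0144). H2bc9 (17291177) had 2.82, 1.58 and 2.08 in low arginine, against 4.90, 4.10 and 3.85 in control, a change of -2.12 ± 0.36 (SE; adjusted p = 0.0144). None of the 3 had overlapping groups, and in each of them low arginine replicate 1 was the highest of its group. H2bc3 (change -1.56, adjusted p = 0.0139) and H2bc14 (change -1.30, adjusted p = 0.00722) also fell. H2bc14 (17285683) had 2.46, 2.24 and 2.46 in low arginine, against 3.57, 3.42 and 4.07 in control, so its low arginine arrays lay close together. The other 2 called probe sets both name H2bc7, H2bc11, H2bc13 and H2bc15 and changed by -0.77 (adjusted p = 0.0437) and -0.75 (adjusted p = 0.0408). The latter (17291190) had means of 2.03 in low arginine and 2.78 in control, so the size of its fall is uncertain. Of the 7 H2B calls, 6 were on probe sets with a mean above 2.48.

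Not every H2B probe set was lower by such amounts. A second probe set naming H2bc4, H2bc6 and H2bc8 (17285851) had a change of -0.44 and no call (adjusted p = 0.104), against the -2.67 of the first. H2bc22 changed by -0.07 (95% interval -0.35 to 0.20, adjusted p = 0.826). H2bc1, the testis H2B, changed by -0.07 (95% interval -0.33 to 0.19, adjusted p = 0.822). The means of 17285851, H2bc22 and H2bc1 lay at or below 2.48, so a fall may not be visible there. H2bc18, with means of 6.21 in low arginine and 6.84 in control, changed by -0.63 with no call (adjusted p = 0.088). Of the 7 H2B calls, leaving out low arginine replicate 2 removed 4 (adjusted p = 0.0613 to 0.162), low arginine replicate 3 removed 5 (0.0585 to 0.163), control replicate 2 removed 5 (0.0589 to 0.143) and control replicate 3 removed 2 (0.0713 to 0.0903). Those of 17285834 and H2bc14 held in each case.

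H2B promoters are known for an octamer, the binding motif of OCT1, which acts with its coactivator in S phase. The 4 sequences below set 3 H2B genes that fell beside the testis gene H2bc1, which had no call, because H2bc12, H2bc14 and H2bc1 hold the octamer and H2bc9 does not. They are the 200 bases before each start (RefSeq, GRCm38.p6): H2bc12 chr13:22035621-22035820 on the plus strand, H2bc14 chr13:21721844-21722043 on the plus strand, H2bc9 chr13:23543445-23543644 on the minus strand and H2bc1 chr13:23934157-23934356 on the minus strand. Capitals mark ATTTGCAT, TATAAA and CCAAT on either strand (ATGCAAAT, TTTATA and ATTGG on the opposite one).
H2bc12: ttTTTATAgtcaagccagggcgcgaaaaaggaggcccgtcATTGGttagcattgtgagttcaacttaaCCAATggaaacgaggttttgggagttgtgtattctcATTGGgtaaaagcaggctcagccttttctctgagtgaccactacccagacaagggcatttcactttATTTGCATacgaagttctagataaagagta
H2bc14: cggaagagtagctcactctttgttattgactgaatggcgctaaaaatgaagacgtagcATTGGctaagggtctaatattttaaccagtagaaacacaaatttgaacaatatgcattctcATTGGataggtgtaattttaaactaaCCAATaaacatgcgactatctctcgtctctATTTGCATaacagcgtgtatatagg
H2bc9: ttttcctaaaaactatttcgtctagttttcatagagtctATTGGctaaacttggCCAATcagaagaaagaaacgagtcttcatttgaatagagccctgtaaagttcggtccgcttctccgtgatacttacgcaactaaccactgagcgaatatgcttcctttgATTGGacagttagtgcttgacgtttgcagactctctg
H2bc1: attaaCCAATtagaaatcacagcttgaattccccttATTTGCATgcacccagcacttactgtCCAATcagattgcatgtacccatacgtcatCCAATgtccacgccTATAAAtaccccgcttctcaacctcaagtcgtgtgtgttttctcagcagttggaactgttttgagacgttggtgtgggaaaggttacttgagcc
H2bc12 starts 177 bases from H2ac12, which is transcribed the other way, so the stretch shown for it also holds the start of H2ac12. H2bc12 fell by 2.50, while the change of H2ac12 was -0.22 (95% interval -0.45 to 0.00, adjusted p = 0.25). H2ac12 lay below 2.48 on every array (means 1.73 in low arginine and 1.95 in control), so a fall of this gene may not be visible. The difference between these neighbours was not tested. Of 8 such divergent pairs with starts within 300 bases, all joined an H2A and an H2B gene, and 2 had a probe set of their own for both genes. The other of the 2, H2ac1 and H2bc1, had no call for either gene, and H2bc1 also lay below 2.48 on every array (means 1.65 in low arginine and 1.71 in control).

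All 12 H3 probe sets carried several symbols, so no H3 gene could be read alone. Of these, 6 fell, with a class median of -0.69, and 2 of the 6 had a mean above 2.48, the limit of the dimmest 0.333 of all probe sets. With all 41345 probe sets tested, 3 H3 probe sets fell. Probe set 17291183, naming 8 H3 genes of chromosomes 13 and 3, had 3.94, 3.18 and 2.74 in low arginine, against 5.54, 4.99 and 6.30 in control, a change of -2.32 ± 0.38 (SE; adjusted p = 0.0137). Probe set 17408015, with the same symbols, had 2.66, 2.19 and 2.26 in low arginine, against 3.18, 4.67 and 4.75 in control, a change of -1.83 ± 0.39 (SE; adjusted p = 0.0322). Probe set 17291222 had 1.68, 1.49 and 1.63 in low arginine, against 2.46, 2.71 and 3.24 in control, a change of -1.20 ± 0.19 (SE; adjusted p = 0.0122), in the dim range in low arginine. The groups did not overlap in any of the 3, and the low arginine arrays lay closer together than the control arrays (SD 0.61 in low arginine and 0.66 in control in the first, 0.25 and 0.88 in the second, 0.10 and 0.40 in the third). The 8 probe sets with these 8 symbols spanned changes of -2.32 to -0.02, and 5 of them fell. Of the 4 probe sets naming H3c1, H3c8, H3c10 and H3c11, 1 fell, by 0.93 (adjusted p = 0.0296). That probe set (17285821) had means of 1.52 in low arginine and 2.45 in control, so the size of its fall is uncertain.

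Leaving out low arginine replicate 2 (adjusted p = 0.0658 to 0.137) or replicate 3 (0.0561 to 0.124) removed all 6 H3 calls. Leaving out low arginine replicate 1 removed 4 (0.0547 to 0.0958), control replicate 2 removed 4 (0.0538 to 0.122) and control replicate 3 removed 2 (0.0768 to 0.0801).

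H4 had the smallest median change of the classes, -0.32, and 2 of its 8 probe sets fell. H4c9 (17291053) had 2.10, 2.35 and 2.35 in low arginine, against 3.95, 4.09 and 3.89 in control, a change of -1.71 ± 0.11 (SE; adjusted p = 0.000564). Its low arginine values lay below 2.48 as well, so the size of the fall is uncertain. Its arrays lay close together in both groups, and its largest adjusted p with any 1 array left out was 0.00651. Probe set 17285706, naming H4c9 and 5 further H4 genes, had 5.25, 4.76 and 4.62 in low arginine, against 5.65, 5.56 and 5.54 in control, a change of -0.71 ± 0.16 (SE; adjusted p = 0.0395). Its call was lost when low arginine replicate 2 (adjusted p = 0.152), low arginine replicate 3 (0.134), control replicate 2 (0.124) or control replicate 3 (0.0809) was left out. H4c17 (17285687) had 3.07, 3.03 and 3.00 in low arginine, against 3.91, 3.49 and 2.98 in control, where control replicate 3 lay below all low arginine arrays (change -0.43, 95% interval -0.92 to 0.06, adjusted p = 0.32). Without that array H4c17 was called lower (-0.67, adjusted p = 0.0474), and without control replicate 1 its change was -0.20 (0.487). H4c12 (17290999) had 10.72, 10.39 and 10.39 in low arginine, against 10.90, 11.07 and 10.80 in control, and its change of -0.42 (95% interval -0.72 to -0.12) had no call (adjusted p = 0.104). All H4 genes encode the same protein, so these probe sets tell apart transcripts and not products.

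The promoters of H4c9, which fell, and H4c12, which had no call, are shown because neither holds a CCAAT, unlike those of the other classes. H4c9 is chr13:22041363-22041562 on the minus strand and H4c12 chr13:21750554-21750753 on the minus strand (RefSeq, GRCm38.p6, 200 bases before the start). Capitals mark TATAAA.
H4c9: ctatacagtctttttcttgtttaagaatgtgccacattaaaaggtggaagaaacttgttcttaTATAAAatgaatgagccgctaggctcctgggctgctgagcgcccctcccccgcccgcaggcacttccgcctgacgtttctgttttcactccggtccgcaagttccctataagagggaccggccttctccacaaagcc
H4c12: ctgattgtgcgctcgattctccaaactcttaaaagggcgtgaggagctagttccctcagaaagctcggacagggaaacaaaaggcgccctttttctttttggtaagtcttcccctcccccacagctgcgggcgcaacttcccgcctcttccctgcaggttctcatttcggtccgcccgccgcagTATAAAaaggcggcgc
In H4c12 the TATAAA lies close to the start, and in H4c9 it lies farther before it.

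**Figure D3:**
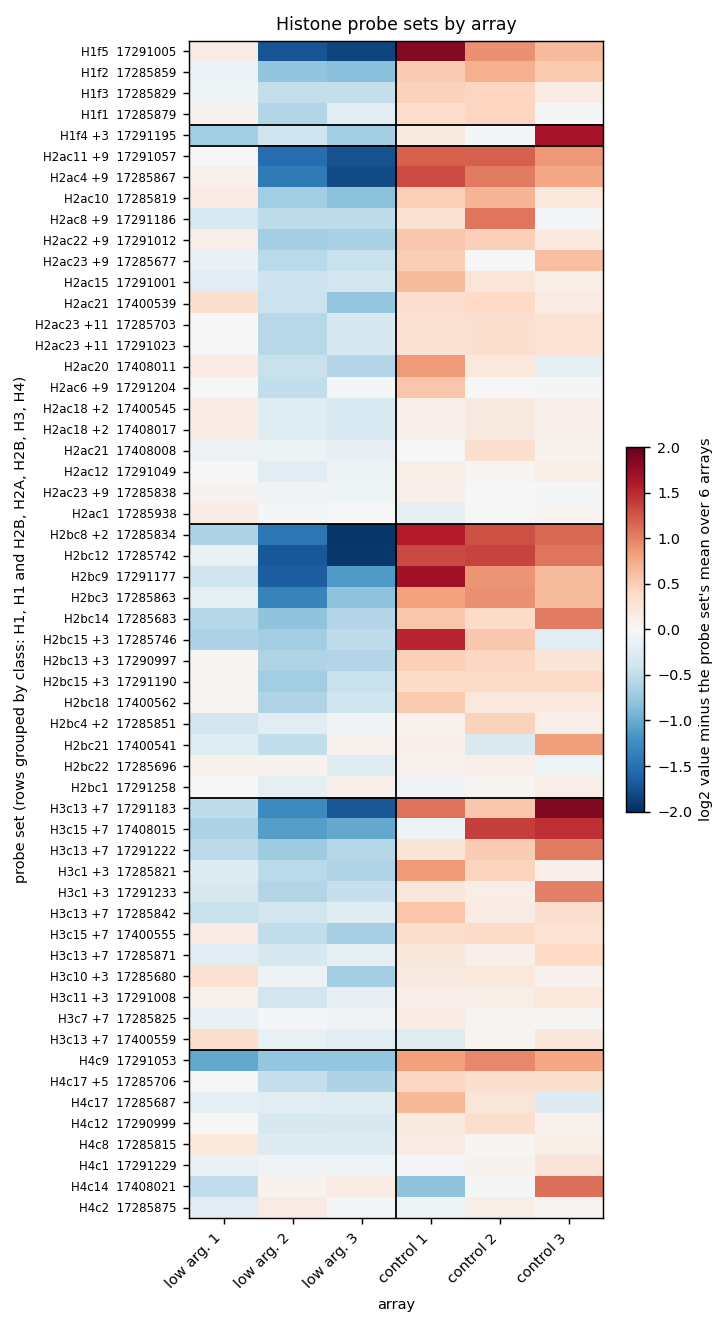
Value of each histone probe set (rows, by class) on each array (columns, low arginine left of control), as log2 value minus the probe set's mean over the 6 arrays. Blue is below and red above that mean, on a scale of -2 to 2. Low arginine replicates 2 and 3 are blue in most rows, while replicate 1 is paler in the H2A rows.

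Over all members, promoter windows of 300 bases (250 before and 50 after the start) were matched for 52 of the 57 genes. The letters TATAAA stood in 31 of the 52 (59.6%), against 14.2% of all 27025 genes with a window. CCAAT stood in 46 (88.5%), against 37.9%, and the octamer ATTTGCAT in 12 (23.1%), against 1.75%, each searched on both strands, and the 3 motifs were counted separately where they overlapped. CCAAT stood in all windows of H1, H2A, H2B and H3 and in 1 of 7 of H4, while the octamer stood in 6 of 17 of H2A and 6 of 13 of H2B and in none of the H1, H3 and H4 windows. Windows of divergent pairs overlap, so the same site can count for both genes. The octamers of H2ac1 and H2bc1, of H2ac8 and H2bc8, and of H2ac12 and H2bc12 are such shared sites. Only the first window of a gene was counted, and a second window of H2bc6, not counted, held the octamer. Among genes with a probe set of their own and a window, TATAAA stood in 6 of 9 that fell and in 10 of 14 with no call. CCAAT stood in 8 of the 9 and 10 of the 14, and the octamer in 3 of the 9 and 5 of the 14. These shares were not tested against each other. A match of letters is a description of the window and not of a factor bound there.

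By location, 19 of 40 probe sets of chromosome 13 genes fell, with a median of -0.73. Of 8 probe sets whose genes all lie on chromosome 3, 0 fell by limma, with a median of -0.35 and changes of -0.63 to -0.18. At an unadjusted p below 0.05, 2 of the 8 were lower, against 2580 of all 25335 probe sets. Both probe sets of the identical pair naming H2ac18, H2ac19 and H2ac20 are among these 8. Of the 8 H3 probe sets naming genes of both chromosomes, 5 fell, with a median of -0.69. Their changes cannot be assigned to 1 chromosome. The difference between the chromosomes was not tested. By level, the 8 brightest probe sets (mean above 10) had changes of -0.91 to -0.26, and 3 of them fell, against 21 of 201 such probe sets in the whole table. Both identical H2A pairs are among these 8 histone probe sets, and the 3 calls count each member of the pair that fell. Of the 20 whose mean lay at or below 2.48, 7 fell, against 10 of 8445 such probe sets in the whole table. These probe sets have no detection call, so the size of their change is uncertain, and the same holds for H4c9, H2bc9, H2bc14 and 17408015, whose low arginine means lay below 2.48 and whose control means lay above it. A further 7 probe sets that name clustered histones beside H4f16 or H4bc24, and so stood outside the name rule, had 4 lower and 0 higher, with a median of -0.65.

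Genes that help make, carry or replace the clustered histones were read in 3 lists, whose counts stand beside the 7.61% called over all probe sets. Of 10 genes listed as histone variants, most of which are made outside S phase as well, 1 fell and 0 rose, with a median of -0.20. The 1 was Cenpa, the H3 variant of centromeres, with 5.64, 4.89 and 4.84 in low arginine, against 7.43, 7.43 and 7.90 in control, a change of -2.47 ± 0.24 (SE; adjusted p = 0.00252), which held with any array left out. H2ax, the H2A variant phosphorylated at DNA breaks, changed by -1.27 with no call (adjusted p = 0.0612), and H2az1, an H2A variant of promoters, by -0.48 (adjusted p = 0.0855). The list also holds H4f16, which shares probe sets with clustered H4 genes. Its brightest probe set changed by -0.08 and its other by -0.23, neither called. H3f3a, H3f3b and H1f0 were not analysed here.

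Of 16 factors of histone transcription and mRNA processing, 1 fell and 0 rose, with a median of -0.13. The 1 was Eri1, an exonuclease that trims and degrades histone mRNA, which fell by 0.81 (adjusted p = 0.0316). SLBP's gene Slbp had 7.62, 7.16 and 7.06 in low arginine, against 7.99, 7.50 and 7.49 in control (change -0.38, 95% interval -0.83 to 0.06, adjusted p = 0.326). Npat, the coactivator of histone gene transcription, changed by -0.11 (95% interval -0.36 to 0.14, adjusted p = 0.664). Casp8ap2, which acts in 3′ end processing, changed by -0.42 (95% interval -0.72 to -0.13, adjusted p = 0.0977), and was called lower without control replicate 3 (0.0394).

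Of 21 histone chaperones, 1 rose and 0 fell by limma, and the median was 0.01. At an unadjusted p below 0.05, 7 were lower and 1 higher, against 2580 and 2603 of all 25335 probe sets. Ipo4, which carries H3 and H4 into the nucleus, rose by 0.97 (adjusted p = 0.0421), while its second probe set had a change of 0.42 and no call (adjusted p = 0.208). Nasp, a chaperone of H3 and H4, changed by 0.01 (95% interval -0.40 to 0.42, adjusted p = 0.98). Chaf1a, the large subunit of the factor that deposits H3 and H4 on new DNA, changed by -0.95 (95% interval -1.51 to -0.39, adjusted p = 0.0578), and was called lower without control replicate 3 (0.042).

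**Figure D4:**
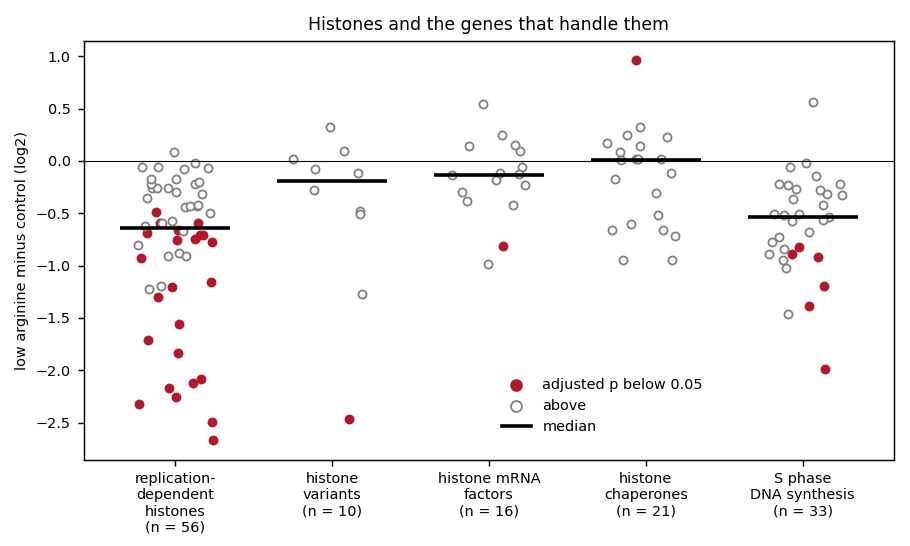
Change in low arginine relative to control (y axis, log2) for the histone probe sets and for 4 lists of genes that handle histones or act in S phase (x axis), 1 point per probe set or gene. Filled points had an adjusted p below 0.05 and lines are medians, which are -0.64 in histones and -0.54 in S phase genes, against 0.01 in chaperones.

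Of 33 genes of S phase and DNA synthesis, 6 fell and 0 rose, against 4.4% lower and 3.21% higher over all probe sets. The change was negative in 32, against 48.6% of all probe sets, and the median was -0.54. Among the genes called, the 3 largest falls were in Ccna2, the cyclin of S phase and G2 (-1.99, adjusted p = 0.0181), Tk1, a thymidine kinase (-1.38, adjusted p = 0.0245), and Ccne1, a cyclin of S phase entry (-1.19, adjusted p = 0.0345). Rrm2, a subunit of ribonucleotide reductase, had a change of -1.46 and no call (adjusted p = 0.0986). Pcna, the sliding clamp of DNA polymerase, changed by -0.27 (95% interval -0.69 to 0.15, adjusted p = 0.499), and Mcm2, a subunit of the replicative helicase, by 0.56 (95% interval -0.04 to 1.17, adjusted p = 0.278). Without control replicate 1 the change of Mcm2 was 0.89 and was called higher (adjusted p = 0.0033), and without control replicate 3 it was 0.34 (0.54). Low arginine replicate 1 was the highest of its group in 33 of 33 S phase genes, and at 0.12 its median deviation reached that of control replicate 3, also 0.12. The proliferation marker Mki67 had 9.27, 8.03 and 7.83 in low arginine, against 9.97, 10.05 and 9.99 in control, a change of -1.63 ± 0.34 (SE; adjusted p = 0.0288), with replicate 1 again nearest to control.

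Cenpa, Eri1, Ipo4, Ccna2, Tk1, Ccne1 and Mki67 were refitted with each array left out. All of these 7 but Cenpa lost the call when low arginine replicate 2 (adjusted p = 0.0869 to 0.147), low arginine replicate 3 (0.0693 to 0.154) or control replicate 2 (0.0749 to 0.148) was left out. Eri1 and Ipo4 also lost it without low arginine replicate 1 (0.0703 to 0.102), and Ipo4, Tk1 and Mki67 without control replicate 3 (0.0513 to 0.0752).

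Markers of other cell types were also read. None of 7 B cell and none of 6 CD8 or natural killer cell markers was called by limma. At an unadjusted p below 0.05 the counts were 0 and 3, against 5183 of all 25335 probe sets. The summed log2 level of the B cell markers was 17.9 to 18.2 in low arginine and 17.7 to 18.6 in control. That of the CD8 and natural killer cell markers was 22.2 to 22.9 in low arginine and 22.4 to 24.5 in control. At or below 2.48 on every array lay 2 of the B cell markers, 1 CD8 or natural killer, 1 plasma cell and 1 myeloid or dendritic marker, and 0 T cell markers. Of 10 myeloid and dendritic markers, 1 was called by limma. This was H2-Ab1, an MHC class II gene whose product was a depletion target when the T cells were first purified. It fell by 3.06 (adjusted p = 0.00066). The sum of the 10 was 30.2 to 31.1 in low arginine and 32.3 to 33.5 in control. Only 3 of the 10 had a negative change and the median was 0.04, so the lower sum reflects H2-Ab1 and not the list. Of 4 plasma cell markers, Prdm1 fell by 1.36 (adjusted p = 0.00502) and Xbp1 by 0.76 (adjusted p = 0.017), with a sum of 18.0 to 18.6 in low arginine and 20.3 to 20.8 in control. Both are also expressed by activated T cells. The part of these markers in the histone differences was not tested.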

How the data were processed

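Total RNA of 6 samples was hybridised to 1-colour Affymetrix whole-transcript arrays. The deposited values are log2 expression values per probe set. Per the submitters' processing notes they were made with the oligo package. The sources used here give neither its version nor the background correction, the normalization or the log base. Base 2 was assumed, as the values lay between 0.956 and 12.41. Sorted values differed between arrays by 0.199 or less, which means near-equal distributions in the deposited table. Without detection calls or scanner signals no probe set could be set against its background, and the number of arrays limits the precision.

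Of 41345 probe sets, 23521 carried 1 gene symbol in the platform annotation, 1814 several and 16010 none. All 25335 with a symbol were tested with R 4.3.3 and limma 3.58.1 (functions lmFit and eBayes, group as the only term, two-sided, residual degrees of freedom 4, prior 3.69), with no filter on level and Benjamini-Hochberg adjustment over all of them (threshold 0.05). The procedure was tested on simulated data. Other lists used a gene's brightest probe set with that symbol alone, and 114 of 130 list members were matched. No red cell marker was among them. Per class, the 3 largest changes were to be given by array, and of each list the 3 largest called changes, plus 13 genes whatever their result. H2bc14, H4c12, H2ac1, the probe sets H2ac18 to H2ac20, H2ax, H4f16, Rrm2 and the markers were named after their values were seen. The members and lists were chosen with earlier results of these data known. Promoter windows are from RefSeq (GRCm38.p6), and H2bc21, H2bc4, H3c1, H3c7 and H4c14 were not matched. Alternatives were other scalings and filters, other probe set selections, other priors, weighting of arrays, a block for the replicate number, and omission of each array in turn. Figures were drawn with matplotlib 3.10.9.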

Additional observations from a re-analysis of the deposited data

How the results depend on the processing

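Against the 24 histone probe sets that fell, 21 to 25 fell after quantile normalization, centring on the median or on the 75th percentile, and with a trended and robust prior. With the probe sets at or below a mean of 2.48 or of 3.10 left out, 17 of 36 and 16 of 31 fell. That mean is over both groups, so some members passed through their control arrays and these counts support nothing. Testing all 41345 probe sets left 10, testing those with 1 symbol left 9 of 26, and array weights gave 33. The count higher was 0 in each of the 17 alternatives. The median histone change ran from -0.81 to -0.54 over them. Leaving out 1 array gave 3 to 24 histone probe sets lower and 481 to 3525 probe sets called in all, against 1927, and array weights gave 3928 in all. The cause of these shifts was not tested. The change of Nasp turned negative without low arginine replicate 1 (-0.07), control replicate 2 (-0.04) or control replicate 3 (-0.12), and reached 0.20 without control replicate 1. Counting identical probe sets once was added after seeing the data.

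No label says whether the replicate numbers pair arrays. The deviations of same-numbered arrays correlated at 0.10, 0.05 and 0.12 across probe sets, not all above 0.1, so the arrays were taken as unpaired. Each array correlated best with its own number, a hint from the data and not the design. With the replicate block, 25 histone probe sets fell, 21 of them shared with the 24, and 1688 probe sets were called in all. The block ended the calls of 17408015 (adjusted p = 0.0509), of the identical H2A pair 17285703 and 17291023 (0.0637) and of Ipo4 (0.0589), and Chaf1a was called lower with it (0.00903). Chaf1a was also called lower with array weights (0.0148) and with the dim probe sets left out (0.0468 and 0.041), and Mcm2 higher with array weights (0.0258). Arrays carry no depth, and signal over background was not measured here.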
